A study of Mus musculus with 3 samples.

Results

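The guanylate-binding proteins *Gbp2* to *Gbp11* were examined on microarrays of lactobacilli-treated RAW 264.7 macrophages, a mouse macrophage-like cell line. They were selected as every gene probe of the arrays that carries 1 of these 10 names. This gave 12 probes for 10 genes, of 56605 gene probes and 26840 genes with a symbol. *Gbp2b*, the mouse gene also known as *Gbp1*, was not among the 10 and is given beside them. The study compared macrophages that had been exposed to immunomodulatory lactobacilli before the TLR4 agonist lipopolysaccharide (LPS) with macrophages that had not. The control array (LPS) held cells given LPS without lactobacilli. The CRL1505 + LPS array held cells given *Lacticaseibacillus rhamnosus* CRL1505 and then LPS, and the CRL1506 + LPS array held cells given *Lactiplantibacillus plantarum* CRL1506 and then LPS. Bacteria were applied at 50000000 cells/mL and washed off after 24 h, and LPS followed at 50 ng/mL. The LPS step lasted 12 h according to the series design and the methods of the study, whereas the sample descriptions state 3 h. All values come from 1 line of cells in culture, and arrays of cells without LPS were not analysed here.

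Guanylate-binding proteins are large GTPases of the dynamin superfamily that interferons induce in macrophages. They assemble on cytosolic bacteria and on the vacuoles of intracellular pathogens, break these membranes open or expose bacterial LPS, and so feed the caspase-11 and AIM2 inflammasomes. Their genes are classical targets of type I interferon, which acts through interferon-stimulated response elements (ISRE), and of interferon gamma, which acts through gamma-activated sites (GAS). In the mouse they lie in a cluster on chromosome 3 and a cluster on chromosome 5.

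The promoters of the chromosome 3 members are shown because promoter windows were available for these members alone. Each window runs from 250 bases before to 50 bases after the transcription start in RefSeq (GRCm38.p6, + strand, 5′ to 3′). Both strands were searched for the letters GAAANNGAAA, the ISRE core, and TTCNNNGAA, the GAS palindrome, and no ISRE core overlapped a GAS palindrome in these windows. Capitals mark the ISRE core, which reads here as its reverse complement, starting with TTTC, because every match lay on the strand opposite to the gene.
*Gbp5*, chr3:142496684-142496983: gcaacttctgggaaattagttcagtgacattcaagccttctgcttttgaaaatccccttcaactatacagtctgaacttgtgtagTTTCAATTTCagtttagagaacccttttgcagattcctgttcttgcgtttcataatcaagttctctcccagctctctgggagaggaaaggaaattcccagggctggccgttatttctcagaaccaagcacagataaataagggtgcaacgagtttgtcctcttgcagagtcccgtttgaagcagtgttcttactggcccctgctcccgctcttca
*Gbp7*, chr3:142530086-142530385: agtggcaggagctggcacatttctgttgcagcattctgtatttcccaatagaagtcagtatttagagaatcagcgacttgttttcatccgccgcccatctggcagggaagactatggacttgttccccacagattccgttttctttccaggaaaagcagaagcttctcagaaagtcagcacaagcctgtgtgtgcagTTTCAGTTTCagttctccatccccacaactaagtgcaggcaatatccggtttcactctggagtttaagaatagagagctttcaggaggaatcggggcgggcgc
*Gbp3*, upstream start, chr3:142559794-142560093: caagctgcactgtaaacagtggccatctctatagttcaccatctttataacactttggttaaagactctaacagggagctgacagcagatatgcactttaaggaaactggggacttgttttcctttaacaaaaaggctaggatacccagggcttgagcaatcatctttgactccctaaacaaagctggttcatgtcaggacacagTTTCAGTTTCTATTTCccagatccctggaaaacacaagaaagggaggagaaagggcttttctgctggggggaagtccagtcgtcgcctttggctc
*Gbp2*, chr3:142620413-142620712: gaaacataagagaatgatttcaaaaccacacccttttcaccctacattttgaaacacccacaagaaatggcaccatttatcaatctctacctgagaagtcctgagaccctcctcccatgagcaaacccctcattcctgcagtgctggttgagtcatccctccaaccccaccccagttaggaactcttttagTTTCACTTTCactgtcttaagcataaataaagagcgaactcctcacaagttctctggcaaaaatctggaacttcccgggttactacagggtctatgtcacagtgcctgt

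All 4 member genes that had a window in the RefSeq table held an ISRE core, against 3.44% of 32851 windows of the same length over all genes. The first base of the motif lay 165 bases before the start of *Gbp5*, 53 before that of *Gbp7* and 59 before that of *Gbp2*. Upstream of *Gbp3* a pair of cores overlapped, beginning 45 and 39 bases before the start. A further *Gbp3* start, with its window at chr3:142560106-142560405, had neither motif. The *Gbp2b* window (chr3:142594597-142594896) had an ISRE core 137 bases before the start. The GAS palindrome was found in 2 of the 4 genes, *Gbp5* and *Gbp7*, against 8.30% of all windows. *Gbp5* had TTCTGGGAA at 245 and TTCTCAGAA at 52 bases before its start, and *Gbp7* had TTCCAGGAA at 106 and TTCTCAGAA at 87. A match to these letters describes the sequence and does not show that a factor binds there. The table held no window for *Gbp4*, *Gbp6*, *Gbp8*, *Gbp9*, *Gbp10* or *Gbp11*.

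**Figure D1:**
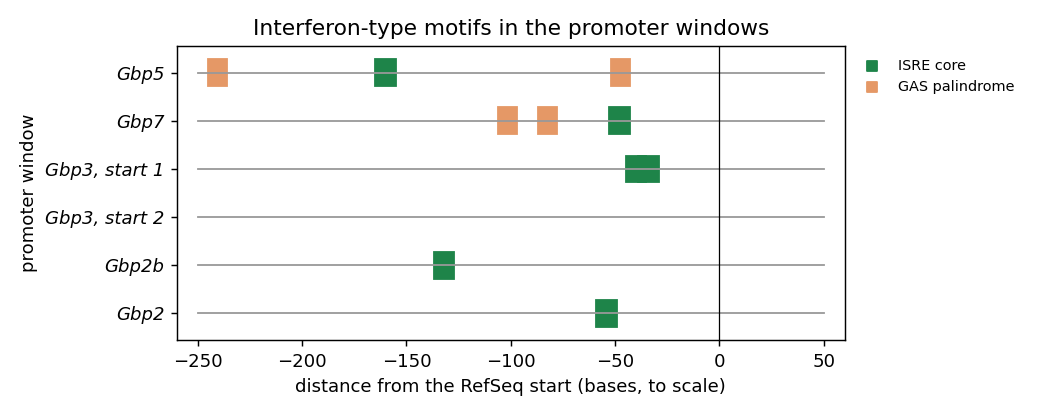
Positions of the ISRE core (green) and the GAS palindrome (orange) in the promoter windows of the chromosome 3 genes, with the distance from the RefSeq start in bases on the horizontal axis, drawn to scale. The ISRE cores of *Gbp7*, *Gbp3* (start 1) and *Gbp2* begin 39 to 59 bases before the start, while those of *Gbp2b* and *Gbp5* begin 137 and 165 bases before it.

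Each condition had 1 array, so there is no replicate check, no test could be run and no p-value is given. A level is the log2 intensity of a probe minus the 75th percentile over gene spots on the same array, and a ratio is the difference of 2 such levels. As the only measure of error, ratios from different probes of the same gene had a median SD of 0.23 on the log2 scale for CRL1505 + LPS over LPS, 0.22 for CRL1506 + LPS over LPS and 0.32 between the strains. Ratios from repeated spots of the same probe had a median SD of 0.044 to 0.048, which describes only spot noise within the 2 hybridisations compared. The CRL1505 + LPS array was the dimmest, with a 75th percentile signal of 517.0 and 48.5% of gene spots well above background, against 743.1 and 54.5% for LPS and 697.9 and 55.3% for CRL1506 + LPS. The CRL1505 + LPS array was on a slide of its own and the remaining arrays shared a slide, so in both comparisons with CRL1505 + LPS the slide and the strain cannot be told apart. The 10 macrophage markers, among them *Adgre1*, *Cd68* and *Lyz2*, were well above background on all 3 arrays. Of the other markers, 3 of 4 for T cells (all but *Cd8a*) were well above background on all arrays, and 0 of 3 for epithelial cells were on any array. The summed level of none of the marker lists given here was highest on the CRL1505 + LPS array. For fibroblasts this rested on the spot of *Col1a1* on the CRL1506 + LPS array, which was uneven. Without *Col1a1* the fibroblast sum was highest with CRL1505. The neutrophil sum for LPS lacked *Ly6g*. Of the 4 neutrophil markers, 3 were well above background on the CRL1505 + LPS array and 2 on each of the other arrays. The sum of the macrophage list, on a linear scale relative to the 75th percentile, was 720.0 in control cells, 711 with CRL1505 and 585 with CRL1506. Within this list the adhesion receptor gene *Adgre1* was 4.83-fold and the Fc receptor gene *Fcgr1* 5.28-fold higher with CRL1505 than in the control (just past 2-fold and 1.93-fold with CRL1506), while the growth factor receptor gene *Csf1r* was 2.77-fold lower (1.83-fold with CRL1506). The sums ranged from 2.68 to 2.92 for T cells, 0.61 to 0.92 for dendritic cells, 1.41 to 2.40 for neutrophils, 0.090 to 0.24 for fibroblasts and 0.046 to 0.095 for epithelial cells. Single markers did rise above background on the CRL1505 + LPS array. The neutrophil gene *S100a9* passed background there alone and was at least 9.04-fold above LPS and at least 8.56-fold above CRL1506 + LPS. *Ly6g* also passed background there and not with CRL1506, at least 4.90-fold above CRL1506 + LPS, whereas its spot on the LPS array was an outlier and gave no value. In the other direction *S100a8* was 2.48-fold lower with CRL1505 than in LPS. The fibroblast gene *Col1a2* was at least 3.50-fold above LPS with CRL1505 and at least 1.33-fold with CRL1506. The fibroblast gene *Col1a1* went the other way. It passed background with CRL1506 alone, on an uneven spot, at least 3.60-fold above LPS and at least 2.81-fold above CRL1505 + LPS. The part of these marker differences in the results was not tested.

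All 10 guanylate-binding protein genes were more than 2-fold higher in CRL1505-treated macrophages than in LPS controls. Each gene was read from its brightest probe, here and in the counts and medians below. The probes read for *Gbp8*, *Gbp9* and *Gbp10* also list other members, so only 7 of the 10 values can be given to 1 gene. The median log2 ratio of the 10 was 2.47, or 5.55-fold, and the ratios ran from 1.64 for *Gbp10* to 3.67 for *Gbp11*. Over all 15603 genes compared, 9.93% were at least 2-fold higher and 8.41% were lower by as much, and the median log2 ratio was 0.01. Of all genes past 2-fold, 54.1% were the higher ones, a split that ranged from 20.1% with arrays scaled to spike-in probes to 76.1% with arrays shifted by their median, while all 10 members stayed higher under both. In CRL1506-treated macrophages 2 of the 10 genes, *Gbp6* and *Gbp7*, were at least 2-fold higher than in the control and 0 were lower. Their median log2 ratio was 0.73 (1.66-fold), against a median of -0.06 over 16279 genes, of which 5.67% were at least 2-fold higher and 3.53% were lower by as much (a split of 61.6% higher, and of 43.4% with the median shift). The median for CRL1505 + LPS over LPS was 1.96 to 2.77 under 12 other ways of processing the arrays, and that for CRL1506 + LPS over LPS was 0.42 to 0.82. The filters on dim probes, outlier spots and uneven spots, counted among the 12, could not move the members' values. All 10 were well above background on every array, and 0 had an outlier or uneven spot. The strains' comparisons share the LPS array, so an error on that array enters both.

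Compared directly, with CRL1505 + LPS over CRL1506 + LPS, all 10 genes were at least 2-fold higher with CRL1505. The median log2 ratio was 1.73 (3.31-fold), with a range of 1.18 for *Gbp9* to 3.14 for *Gbp5*. Among 15780 genes compared in this way, 9.02% were at least 2-fold higher, 7.47% were lower by as much and the median was 0.03. This split of 54.7% higher was 24.0% with spike-in probes and 89.0% with the median shift. Between 7 and 10 members passed 2-fold in this direction under the 12 other ways of processing. On the brightest probe of each gene, the levels of 9 genes increased in the order LPS, CRL1506 + LPS, CRL1505 + LPS. *Gbp2* was the exception, with its lowest level in CRL1506 + LPS. A dimmer probe of *Gbp5*, described below, was instead highest in CRL1506 + LPS, with a log2 ratio between the strains of -0.93. In bulk RNA a change in the share of cells that express a gene and a change in the RNA per cell cannot be told apart.

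**Figure D2:**
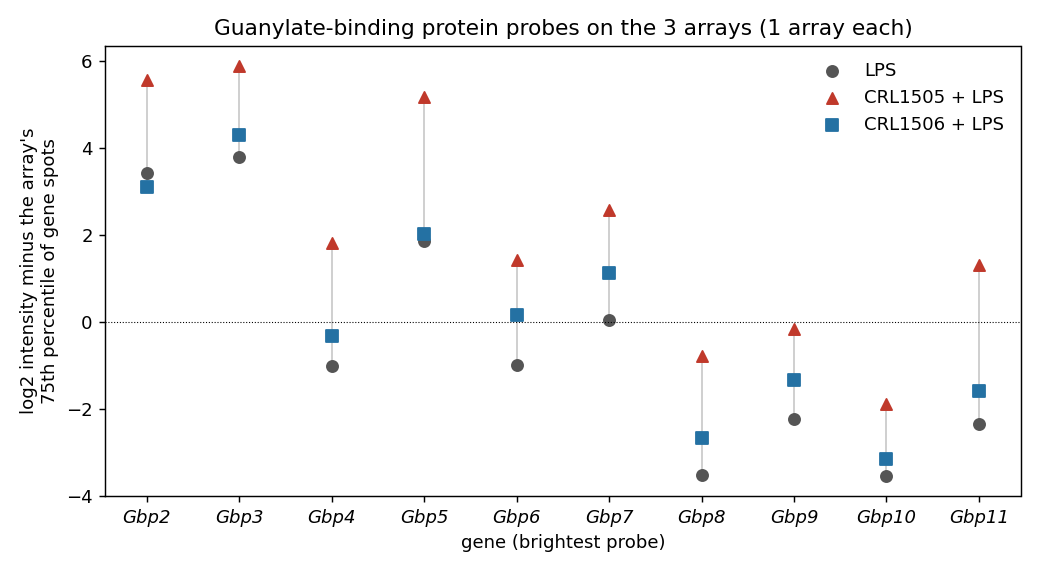
Log2 level of each gene's brightest probe, relative to the 75th percentile of gene spots, on the LPS (grey circles), CRL1505 + LPS (red triangles) and CRL1506 + LPS (blue squares) arrays, with 1 array each and therefore no error bars. The CRL1505 + LPS point is the highest for all 10 genes, and the CRL1506 + LPS point lies above the LPS point for 9, the exception being *Gbp2*.

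*Gbp2* and *Gbp5* encode proteins that end in a prenylation signal and are thereby anchored to membranes. *Gbp2*, which coats *Toxoplasma* vacuoles and bacteria, had a log2 level of 3.43 in LPS, 5.57 in CRL1505 + LPS and 3.11 in CRL1506 + LPS. The CRL1505 + LPS array was far above the others, and the CRL1506 + LPS array was the lowest. The log2 ratio to the control was 2.15 (4.43-fold higher) with CRL1505 and -0.31 (1.24-fold lower) with CRL1506, which made it 5.51-fold higher with CRL1505 than with CRL1506. The probe lies at chr3:142300719-142300778 (mm9, + strand).

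*Gbp5*, whose product promotes NLRP3 and AIM2 inflammasome activity, had a log2 level of 1.87 in LPS, 5.17 in CRL1505 + LPS and 2.03 in CRL1506 + LPS. The LPS and CRL1506 + LPS arrays were close to each other, within the SD between probes, and the CRL1505 + LPS array was far above both. The log2 ratio to the control was 3.31 (9.89-fold) with CRL1505 and 0.16 (1.12-fold) with CRL1506, and the ratio between the strains was 3.14 (8.83-fold). The sign of the small CRL1506 difference turned, to -0.04, when arrays were shifted by their median.

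A dimmer probe of *Gbp5* did not follow the same order. Its log2 level was -1.08 in LPS, 0.00 in CRL1505 + LPS and 0.93 in CRL1506 + LPS. The CRL1506 + LPS array was therefore the highest, with log2 ratios to the control of 1.08 (2.11-fold) for CRL1505 and 2.01 (4.02-fold) for CRL1506, and a ratio between the strains of -0.93. None of its spots was marked as an outlier or uneven. The brighter probe lies at chr3:142184779-142184838 and is assigned to the RefSeq transcript of the gene. The dimmer one lies at chr3:142181426-142181485, is assigned to an Ensembl transcript and lists no RefSeq transcript. Which transcript forms each of them detects was not tested. With the mean of both probes the *Gbp5* ratios became 2.19 for CRL1505, 1.09 for CRL1506 and 1.11 between the strains.

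*Gbp3* and *Gbp7*, neighbors of *Gbp5* and *Gbp2* on chromosome 3, complete the members of that cluster. *Gbp3* had a log2 level of 3.79 in LPS, 5.88 in CRL1505 + LPS and 4.31 in CRL1506 + LPS. Both strains lay above the control, with log2 ratios of 2.09 (4.26-fold) for CRL1505 and 0.52 (1.43-fold) for CRL1506, and CRL1505 was 2.97-fold above CRL1506. *Gbp7*, whose product acts in the delivery of oxidative and lysosomal defences to pathogen vacuoles, had a log2 level of 0.05 in LPS, 2.58 in CRL1505 + LPS and 1.13 in CRL1506 + LPS. On the brightest probes it was 1 of the 2 genes past 2-fold with both strains. Its log2 ratios were 2.54 (5.81-fold) for CRL1505 and 1.09 (2.12-fold) for CRL1506, the latter falling to 0.89 when arrays were shifted by their median and to 0.96 when they were scaled to spike-in probes. The probes lie at chr3:142236072-142236131 (*Gbp3*) and chr3:142209379-142209438 (*Gbp7*).

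*Gbp2b*, the remaining gene of the cluster, encodes another prenylated member. Its log2 level was 3.37 in LPS, 5.98 in CRL1505 + LPS and 3.45 in CRL1506 + LPS. As with *Gbp5*, the LPS and CRL1506 + LPS arrays differed by less than the SD between probes, with a log2 ratio of 0.08, while CRL1505 + LPS was 6.13-fold above LPS (log2 ratio 2.62).

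The 6 members on chromosome 5 were all above the control with both strains. They held the largest and the smallest CRL1505 ratio of the 10 genes, 3.67 for *Gbp11* and 1.64 for *Gbp10*. *Gbp4*, whose product restrains IRF7-dependent interferon production, had a log2 level of -1.02 in LPS, 1.83 in CRL1505 + LPS and -0.32 in CRL1506 + LPS. Its log2 ratios were 2.84 (7.18-fold) with CRL1505 and 0.69 (1.62-fold) with CRL1506. *Gbp6*, which takes part in defence against mycobacteria, had a log2 level of -0.99 in LPS, 1.42 in CRL1505 + LPS and 0.17 in CRL1506 + LPS. On the brightest probes it had the largest CRL1506 ratio of the 10 genes, 1.15 (2.23-fold). Its CRL1505 ratio was 2.41 (5.30-fold), and the difference between the strains was 2.38-fold. The CRL1506 ratio of *Gbp6* fell to 0.95 when arrays were shifted by their median. The probes lie on the minus strand at chr5:105544852-105544911 (*Gbp4*) and chr5:105700081-105700140 (*Gbp6*).

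*Gbp11*, which RefSeq classifies as a transcribed pseudogene, had a log2 level of -2.36 in LPS, 1.31 in CRL1505 + LPS and -1.59 in CRL1506 + LPS. The CRL1505 + LPS array was far above the others. With a log2 ratio of 3.67 (12.7-fold) it had the largest CRL1505 response of the 10 genes, while the ratio for CRL1506 was 0.77 (1.70-fold) and that between the strains 2.90 (7.46-fold). Its probe lies at chr5:105752145-105752204 on the minus strand and lists no other gene.

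The probes of *Gbp8*, *Gbp9* and *Gbp10* each list transcripts of other members as well, so their values cannot be given to 1 gene. The *Gbp8* probe (chr5:105443767-105443826) also lists *Gbp11*, and its log2 level was -3.51 in LPS, -0.79 in CRL1505 + LPS and -2.67 in CRL1506 + LPS. The log2 ratios of *Gbp8* were 2.72 (6.59-fold) for CRL1505 and 0.84 (1.79-fold) for CRL1506. A dimmer *Gbp8* probe (chr5:105443951-105444010), which lists *Gbp8* alone, passed the background limit on the CRL1505 + LPS array alone. This gave a level at least 4.50-fold higher than in LPS and at least 4.26-fold higher than in CRL1506 + LPS. The bound sets the brighter array against the lowest signal that counted as well above background on the dimmer array.

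The *Gbp9* probe spans 242 bases of the genome (chr5:105523238-105523479, 60 bases in the probe) and lists *Gbp4*, *Gbp6* and *Gbp10* too. Its log2 level was -2.24 in LPS, -0.15 in CRL1505 + LPS and -1.34 in CRL1506 + LPS, with log2 ratios of 2.09 (4.24-fold) for CRL1505 and 0.90 (1.87-fold) for CRL1506. *Gbp10* (probe at chr5:105644753-105644812, which also lists *Gbp6*) had a log2 level of -3.54 in LPS, -1.90 in CRL1505 + LPS and -3.16 in CRL1506 + LPS. It had the smallest ratio of the 10 for CRL1505, 1.64 (3.12-fold), and a ratio of 0.38 (1.30-fold) for CRL1506. *Gbp10* was also the member whose call depended on the background correction, with a CRL1505 ratio of 0.95 after normexp correction. The 7 members whose probe lists a single RefSeq gene had median ratios of 2.54 for CRL1505 and 0.69 for CRL1506, and the 3 shared probes had medians of 2.09 and 0.84.

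**Figure D3:**
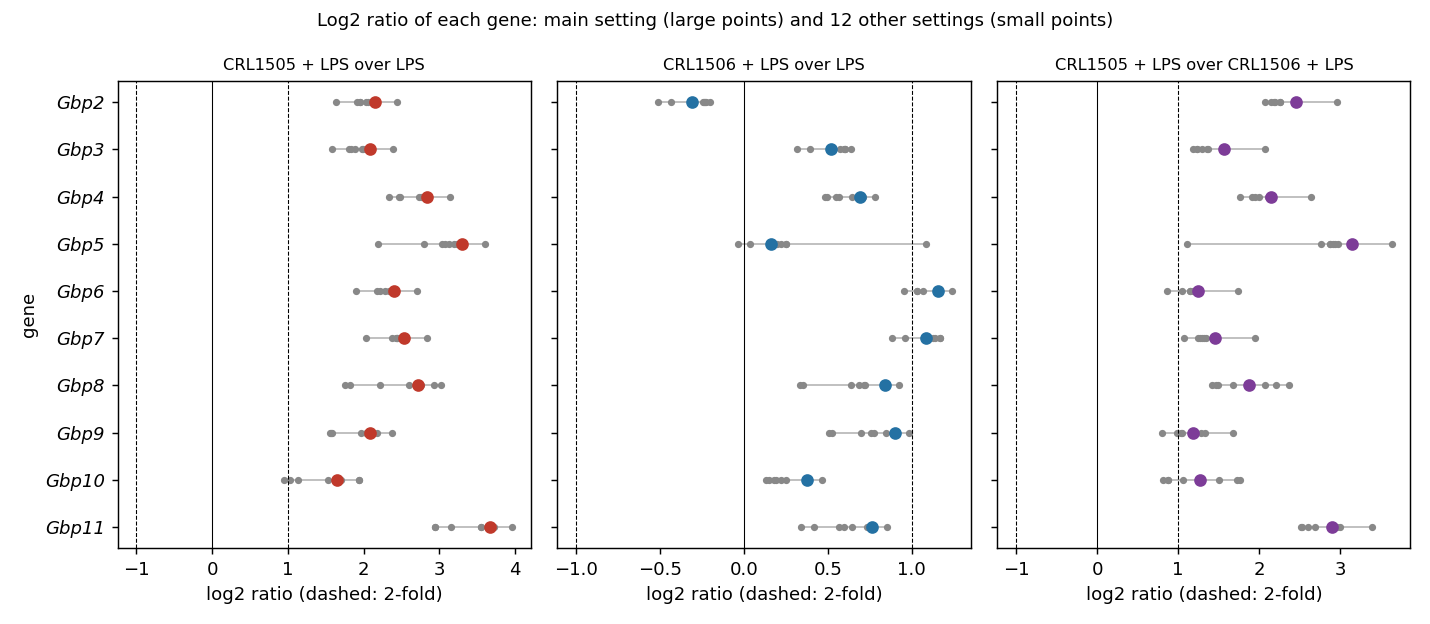
Log2 ratio of each gene (rows) for CRL1505 + LPS over LPS, CRL1506 + LPS over LPS and CRL1505 + LPS over CRL1506 + LPS, with large points for the values reported here, small grey points for 12 other ways of processing the arrays, and dashed lines at 2-fold. In the left panel 9 genes stay past 2-fold throughout and *Gbp10* reaches down to 0.95, in the middle panel *Gbp2* stays below 0 throughout, and the low outlying points of *Gbp5* in the left and right panels are those of the mean over its 2 probes.

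The clusters hold few genes each, and their order depended on the processing. The 4 members on chromosome 3 had a median log2 ratio of 2.34 for CRL1505 and the 6 on chromosome 5 of 2.56. For CRL1506 the medians were 0.34 on chromosome 3, where *Gbp2* and *Gbp5* were near or below 0, and 0.80 on chromosome 5, where all 6 genes were above 0. Between the strains they were 2.02 and 1.57. When probes of the same gene were averaged instead of taking the brighter, which moves *Gbp5*, both medians were 0.80 for CRL1506, and between the strains they were 1.51 on chromosome 3 and 1.57 on chromosome 5. The order between the strains also turned after quantile (1.76 and 1.79) and cyclic loess normalization (1.81 and 1.93), and that for CRL1505 after normexp correction (2.16 and 1.97) and in the deposited log2 table (2.18 and 2.02). In the order of their CRL1505 ratios among 15603 genes, *Gbp11* ranked 58th from the top, *Gbp5* 96th, *Gbp4* 173rd, *Gbp8* 202nd and *Gbp7* 253rd. The others followed at 296 (*Gbp6*), 405 (*Gbp2*), 427 (*Gbp3*), 429 (*Gbp9*) and 692 (*Gbp10*). Neighbors in that order differed by less than the SD between probes, apart from *Gbp11* against *Gbp5*, *Gbp5* against *Gbp4*, *Gbp6* against *Gbp2* and *Gbp9* against *Gbp10*.

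**Figure D4:**
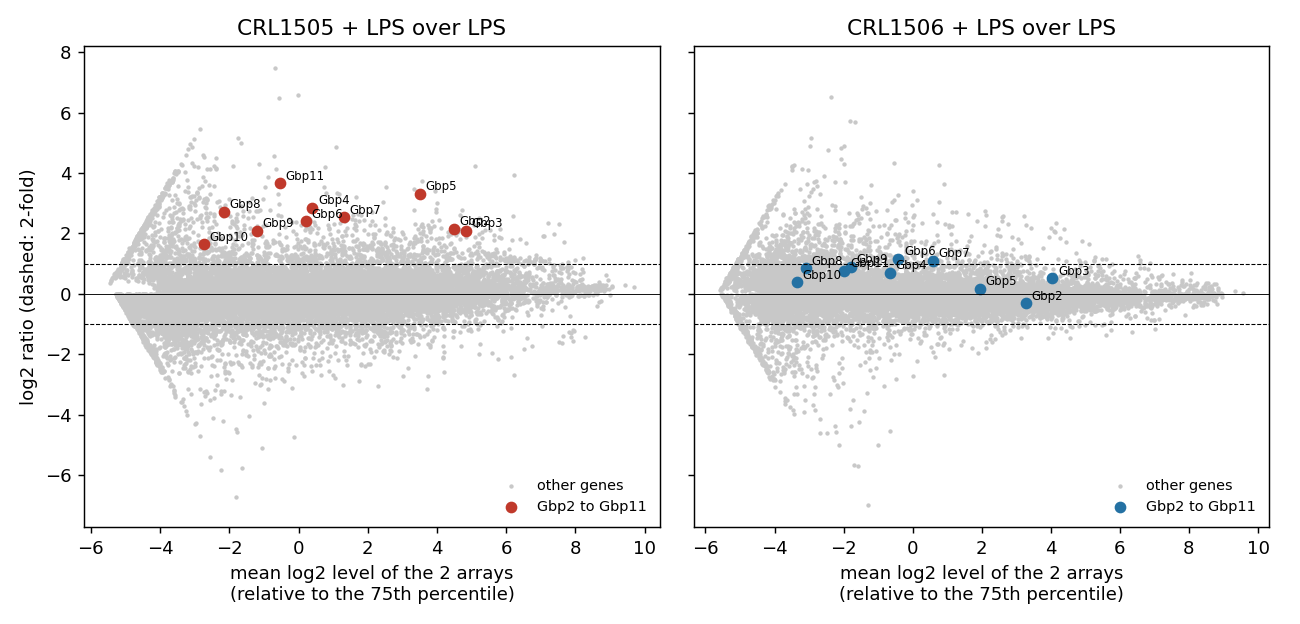
Log2 ratio against the mean log2 level of the 2 arrays compared, for all genes compared (grey) and the guanylate-binding proteins (large labelled points), with CRL1505 + LPS over LPS on the left and CRL1506 + LPS over LPS on the right and dashed lines at 2-fold. With CRL1505 the 10 genes lie between 1.64 and 3.67 at low and at high levels alike, while with CRL1506 they lie between -0.31 and 1.15.

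The genes that induce guanylate-binding proteins or act with them were followed in a list of 40 genes, of which 39 were on the array by symbol (*Tgtp1* was not found) and 38 could be compared. With CRL1505, 13 of the 38 were at least 2-fold higher than in LPS and 0 were lower, with a median log2 ratio of 0.48. With CRL1506, 2 were higher and 1 was lower, with a median of -0.04. Between the strains 10 were higher with CRL1505 and 0 were lower. With arrays scaled to spike-in probes, 7 were higher and 3 lower for CRL1505 over LPS, and 5 higher and 1 lower between the strains. With arrays shifted by their median, the higher genes numbered 15 and 21. Over all genes the shares at least 2-fold higher were the 9.93%, 5.67% and 9.02% given above. The list was chosen with earlier results of these data known, so its shares are a description and not a test.

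Among inducers and their signaling, *Ifnb1*, which encodes interferon beta, had a log2 level of 1.61 in LPS, 5.08 in CRL1505 + LPS and 3.93 in CRL1506 + LPS. Both strains were thus above the control, with log2 ratios of 3.47 for CRL1505 and 2.31 for CRL1506. *Ifng*, the gene of interferon gamma, did not pass the background limit on any of the arrays. With CRL1505 the ratios were also past 2-fold for the signal transducer *Stat2* (1.56), the kinase *Jak2* (1.53) and the feedback inhibitor *Socs1* (1.54), and with CRL1506 the corresponding ratios were 0.53, 0.54 and 0.30. The other probe of *Stat2* gave a CRL1505 ratio of 0.37. *Ifnar1*, a subunit of the type I interferon receptor, had a CRL1506 ratio of 1.37 on its brightest probe, and its 4 probes ran from -0.43 to 1.37. A further 8 inducers compared, among them the receptors of interferon gamma and the factors *Irf1*, *Irf8* and *Irf9*, were within 2-fold of LPS for both strains.

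The partner immunity-related GTPases, which act with guanylate-binding proteins on pathogen vacuoles, were at least 2-fold higher than in LPS in 4 of 5 cases with CRL1505 and in 0 of 5 with CRL1506. *Igtp* had a log2 level of 3.91 in LPS, 6.20 in CRL1505 + LPS and 3.93 in CRL1506 + LPS. *Igtp* (2.29), *Iigp1* (2.41), *Irgm2* (1.37) and *Irgm1* (1.20) were past 2-fold for CRL1505, and *Gm12250*, which encodes Irgb10, had a ratio of 0.69 on its brighter probe and 1.08 on the other. For CRL1506 all 5 lay between -0.46 and 0.42. Between the strains all 5 were at least 2-fold higher with CRL1505, from 1.08 to 2.27. The other probe of *Iigp1* gave a CRL1505 ratio of only 0.03, and the 4 probes of *Irgm1* ran from 0.08 to 1.20 between the strains.

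Of 8 genes of cytosolic sensing and pyroptosis, the steps that guanylate-binding proteins feed, 4 were at least 2-fold higher with CRL1505. These were the cytokine genes *Il18* (1.51) and *Il1b* (1.07) and the caspase genes *Casp1* (1.22) and *Casp4* (1.01), the last of which encodes caspase-11. *Il1b* and *Casp4* were only just past 2-fold. Both fell below it with a percentile taken over probes detected on all arrays. With arrays scaled to spike-in probes *Casp1* fell below it as well. With CRL1506, *Casp1* and *Casp4* had ratios of 0.24 and 0.29, *Il18* -0.31 and *Il1b* -1.04. 1 of the 3 probes of *Il1b* gave -0.05 for CRL1505, and all 3 lay between -1.28 and -1.04 for CRL1506. The paper reported *Il1b* as increased with CRL1505 on its arrays, but as reduced with both strains by qPCR. For the pore-forming *Gsdmd* the ratios were 0.49 and 0.07, and for the DNA sensor *Aim2* 0.84 and 0.45. The adaptor gene *Pycard* had ratios of -0.62 and -0.24, and the sensor gene *Nlrp3* of -0.33 and -0.07. The autophagy-type conjugation genes that direct guanylate-binding proteins to vacuoles (*Atg3*, *Atg5*, *Atg7*, *Atg12*, *Atg16l1*, *Gabarapl2*) stayed between -0.30 and 0.40 for CRL1505, and the prenylation enzymes between -0.89 and 0.53. With the scaling used here none of these 11 genes passed 2-fold with either strain. Over all genes 9.93% were at least 2-fold higher with CRL1505 and 8.41% lower by as much. The lowest of the 11 for CRL1505, *Fnta*, passed 2-fold lower with spike-in probes and with a percentile taken over probes detected on all arrays.

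**Figure D5:**
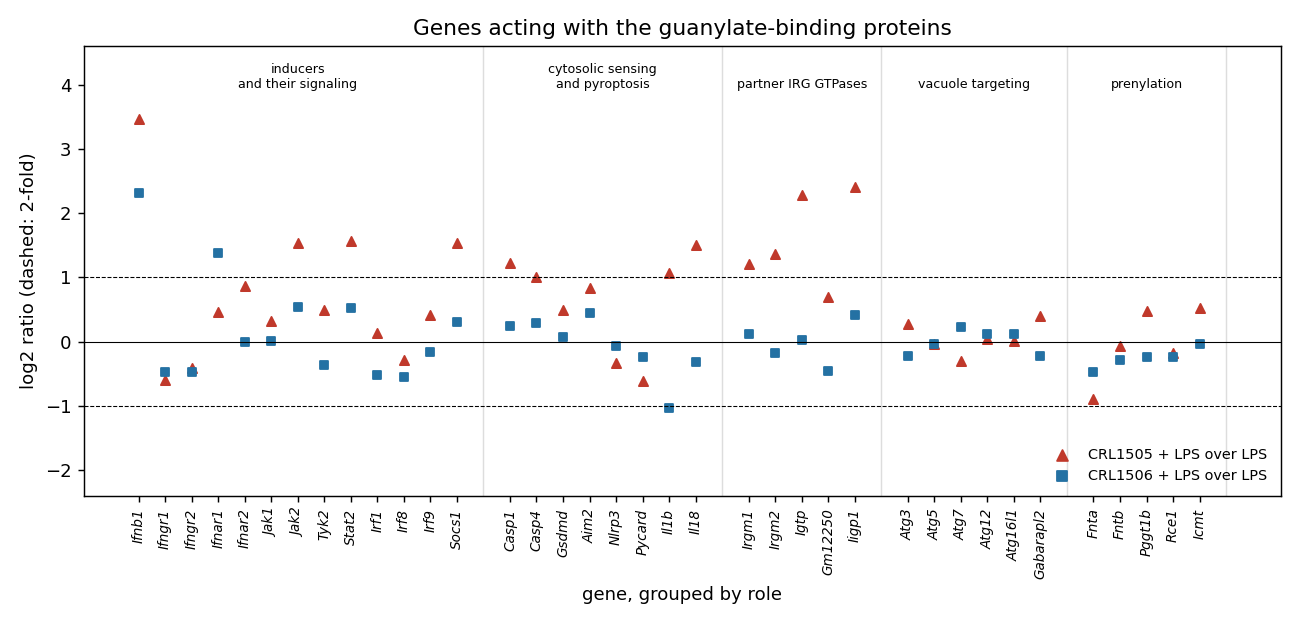
Log2 ratio to LPS of 37 of the 38 genes compared that induce guanylate-binding proteins or act with them, grouped by role, for CRL1505 + LPS (red triangles) and CRL1506 + LPS (blue squares), with dashed lines at 2-fold. Red triangles lie above 2-fold for 12 of the genes drawn, among them 4 of 5 partner GTPases, and for 0 of the vacuole targeting and prenylation genes.

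The genes whose pair of ratios was closest to the members' medians (2.47 for CRL1505, 0.73 for CRL1506) were looked for among 7570 genes brighter than the 75th percentile on every array. The 6 members on chromosome 5 were dimmer than this limit in LPS, so genes as dim as these were not searched. By Euclidean distance on the log2 scale the 5 nearest were *Mndal* (0.039), *Herc6* (0.087), *Slfn4* (0.12), *Gm9706* (0.14) and *LOC108167387* (0.23). *Mndal* had ratios of 2.44 and 0.75, and *Herc6* had ratios of 2.40 and 0.79. Since each point rests on 2 ratios from 3 arrays, the likeness is a description of these arrays.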

How the data were processed

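RNA of RAW 264.7 macrophages was labelled with Cy3 and hybridised to SurePrint G3 Mouse GE arrays, 1 per condition. The authors deposited Feature Extraction output (version 12.0.3.1 in the file headers) with spot intensities, corrected for background but not scaled between arrays, and a log2 table already normalized between arrays by a setting not given in the sources used here. Here, log2 intensities were shifted by each array's 75th percentile over 59305 gene spots. Outlier spots were left out, repeats averaged, and the brightest probe taken for a gene. A ratio with only 1 array well above background was taken as a lower bound. Genes were counted at 2-fold. The methods' test needs replicates and was not run. All 10 members, pathway genes past 2-fold and *Gbp2b* were to be named. Members and lists were chosen with earlier results of these data known. Other scalings, normalizations (limma 3.58.1, R 4.3.3; normexp offset 50), filters, probe rules and thresholds (1.5-fold, 4-fold) were tried. Python 3.11.15 and pandas 2.3.3 were used. Probe positions are mm9, and accessions of 10 of 12 member probes matched a RefSeq symbol. The procedure was tested on simulated data that held the noise of repeated spots but no variation between slides or cultures. Some markers, 1 pathway gene (kept in the counts) and a probe sequence are not reported here.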

Additional observations from a re-analysis of the deposited data

Results flagged for a closer look

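*Gbp2* was the 1 member whose ratios to the LPS control had opposite signs for the strains. Each ratio was larger than the SD between probes, which is a median over other genes and does not measure variation between cultures. The log2 ratio was 2.15 for CRL1505 + LPS and -0.31 for CRL1506 + LPS. With 1 array per condition the difference between these effects was not tested. The ratio for CRL1506 stayed below 0, between -0.51 and -0.20, under 12 other ways of processing the arrays. The value of -0.20, after cyclic loess normalization, was within the SD between probes of 0.22. The filters on dim probes and spots and the mean over probes could not move the ratio, because *Gbp2* has 1 probe and it passes them.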

How the results depend on the processing

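No paired analysis was possible because each condition had 1 array. The members' median log2 ratio for CRL1505 + LPS over LPS, 2.47 as reported, became 2.77 when arrays were shifted by their median, 1.96 when scaled to spike-in probes, 2.06 after normexp correction with quantile normalization and 2.07 in the deposited log2 table. The median between the strains, 1.73, became 2.22, 1.34, 1.36 and 1.37 in the same order. That for CRL1506 + LPS over LPS, 0.73, became 0.46 after normexp and 0.42 in the deposited table. Shifting by the median moved the median of all genes by 0.32 for CRL1505 + LPS over LPS, by -0.20 for CRL1506 + LPS over LPS and by 0.54 between the strains, and scaling to spike-in probes by -0.49, -0.12 and -0.38. A percentile taken over probes detected on all arrays moved it by -0.11, 0.085 and -0.20, and no filter on dim probes by 0.13, 0.14 and 0.11. The distance from the median of all genes to that of the members stayed between 2.08 and 2.47 for CRL1505 over the alternatives. Members at least 2-fold higher with CRL1506 than in LPS, 2 as reported, numbered 0 with the median shift, 1 with spike-in probes, 6 at a 1.5-fold threshold and 0 at 4-fold, and at 4-fold 4 members were higher with CRL1505 than with CRL1506. No called value changed its sign. Of the pathway genes, 13 as reported were at least 2-fold higher with CRL1505 than in LPS, 7 with spike-in probes (and 3 lower) and 15 with the median shift. Between the strains 10 were higher as reported, 5 with spike-in probes and 21 with the median shift. *Il1b* was the 1 gene lower with CRL1506, and the count was 0 after quantile, cyclic loess and normexp normalization, in the deposited table and with the percentile over detected probes. The causes of these shifts were not tested. The number of arrays limits the precision of every value.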

Other observations

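Genes other than the 10 members were also sorted by the ISRE core in their RefSeq promoter windows. Of 465 compared genes with the letters GAAANNGAAA on either strand, 117 (25.2%) were at least 2-fold higher in CRL1505 + LPS than in LPS, against 976 of 11095 (8.80%) without them. For CRL1506 + LPS over LPS the counts were 33 of 464 (7.11%) and 499 of 11497 (4.34%). The GAS palindrome showed a smaller gap for CRL1505, with 116 of 987 genes (11.8%) that hold it and 977 of 10573 (9.24%) that do not. *Gbp2b* is among the genes sorted here, with the ISRE core and without the GAS palindrome. The motif and the array values were set side by side without a test.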
